A study of Mus musculus with 30 samples.

Results

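Chemokines are small secreted proteins that guide the movement of leukocytes, and the 9 genes described here are Ccl2, Ccl7, Ccl11, Cxcl1, Cxcl5, Cxcl12, Cxcl14, Cxcl16 and Cx3cl1. They were taken by name from the RNA tables, 9 of 35973 genes, together with the 12 of 16367 listed chromatin sites that the authors' deposited tables annotate to one of them. The genes were picked with their RNA values in these libraries known, so those values are given as a description and without a p-value. The cells were wildtype primary mouse tail-tendon fibroblasts, grown in 10% FBS and treated in 0.1% FBS. RNA was measured in 3 libraries per group. One group received DMSO as the vehicle, the second blebbistatin, which blocks non-muscle myosin II, at 10 µM, and the last Y27632, a kinase inhibitor, at 30 µM. Accessible chromatin was profiled by ATAC under these 3 treatments (9 libraries). Another 12 genomic DNA libraries crossed doxycycline at 10 ng/mL with blebbistatin at 10 µM, 3 per group, so that the groups had neither drug, blebbistatin alone, doxycycline alone or both drugs. The labels give the genotype of the doxycycline groups as wildtype, do not state what doxycycline induced, and mention no genomic DNA protocol other than ATAC. They give no treatment time, and do not say whether the replicates came from separate cultures or animals, so p-values measure the spread between these libraries, which may be technical.

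Chemokines are grouped by the spacing of their first cysteines into CC, CXC and CX3C families, and they act through G protein-coupled receptors on the target cell. Most are secreted and held on heparan sulfate near their source, whereas Cxcl16 and Cx3cl1 are made as transmembrane proteins that proteases release. Fibroblasts are known to make several of them, in part after cytokines such as interleukin 1 activate the transcription factor NF-kB, and this is one of the ways in which a connective tissue draws in monocytes and neutrophils.

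Several of these genes lie side by side. Ccl2 (chr11:82035577-82037452), Ccl7 (chr11:82045712-82047525) and Ccl11 (chr11:82057832-82062955) are neighbours in the GRCm38 annotation of RefSeq. Cxcl5 (chr5:90759298-90761625) and Cxcl1 (chr5:90891245-90893121) are in a second cluster, which also holds Ppbp, Pf4, Cxcl3 and Cxcl2. Cxcl12 (chr6:117168535-117181368), Cx3cl1 (chr8:94772180-94782427), Cxcl16 (chr11:70454389-70459984) and Cxcl14 (chr13:56288643-56296811) stand elsewhere.

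The 120 bases that end just before the start of 2 of these genes and of 2 neighbours are given here from RefSeq (GRCm38.p6), all on the plus strand and written 5′ to 3′. Cxcl1 is shown because it had the largest fold of the 9 genes, Cxcl2 and Cxcl3 because they are its neighbours of the same receptor class, and Cx3cl1 because its window lies wholly inside a listed chromatin site. Cxcl2 and Cxcl3 are not among the 9 genes and were chosen for display after their values were seen. Capitals mark the kappa-B stretch GGGAATTTCCC, in which the NF-kB consensus matches on both strands, and TATAAA.
Cxcl1: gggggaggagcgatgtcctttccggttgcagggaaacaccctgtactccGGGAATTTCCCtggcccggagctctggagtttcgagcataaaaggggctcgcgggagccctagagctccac
Cxcl2: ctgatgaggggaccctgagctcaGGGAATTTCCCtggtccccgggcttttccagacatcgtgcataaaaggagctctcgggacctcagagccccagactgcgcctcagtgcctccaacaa
Cxcl3: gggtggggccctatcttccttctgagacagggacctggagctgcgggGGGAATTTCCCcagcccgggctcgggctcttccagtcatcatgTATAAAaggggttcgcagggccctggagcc
Cx3cl1: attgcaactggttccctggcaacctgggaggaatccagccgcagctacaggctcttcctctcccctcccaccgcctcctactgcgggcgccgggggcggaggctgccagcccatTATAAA

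The windows are chr5:90891125-90891244 for Cxcl1, chr5:90903779-90903898 for Cxcl2, chr5:90785981-90786100 for Cxcl3 and chr8:94772060-94772179 for Cx3cl1. The first kappa-B match began 71 bases before the start of Cxcl1, 97 bases before that of Cxcl2 and 73 bases before that of Cxcl3. TATAAA began 30 bases before the start of Cxcl3, but only 6 bases before that of Cx3cl1. Over 250 bases before the start and on both strands, the kappa-B consensus was present in 3.9% of 32851 promoter windows, and TATAAA in 12.4%. Promoter sequence was at hand for 4 of the 9 genes and for 25 of the 32 other chemokine ligands. Of those other ligands, only Cxcl2 and Cxcl3 were looked at one by one, so the matches are not tied to the RNA change. The windows of Cxcl12, Cxcl14 and Cx3cl1 held no match to the kappa-B consensus. The Cxcl14 window, chr13:56296552-56296801 on the minus strand, lies inside the gene coordinates given above. A lack of matches in it therefore does not describe the bases before the start that those coordinates give. Other motifs searched were TGANTCA, in 6.75% of the windows, the letters GGAATG, in 12.6%, and the CArG box, in 1.47%. None of these had a match in the windows of the 4 genes. These are matches of letters and were not read as sites of binding.

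The RNA libraries held 23375386 to 37061737 reads in genes. All 15 tendon fibroblast markers listed, among them the collagens Col1a1 and Col3a1, had a mean normalised count of at least 10 in every group. Of 13 macrophage markers, 12 reached that level, and the T cell markers Cd3e and Cd3d were at 0 in all 9 RNA libraries. Keratinocyte and skeletal muscle markers summed to at most 90.9 and 38.7 jointly scaled counts in a library. Other lists were not near 0. Endothelial markers summed to at most 3485, most of it from Tek, and pericyte and smooth muscle markers to at most 3170, most of it from Cspg4. Nerve and Schwann cell markers summed to at most 679. In these lists 4 of 8, 4 of 7 and 4 of 5 genes had a mean of at least 10 in every group. Values below are the authors' normalised counts, which are reads divided by 1 factor per library and scaled separately in the blebbistatin and Y27632 tables. The same DMSO libraries therefore appear with slightly different values in the 2 tables, and the 2 treatments share these controls. Log2 differences are of normalised count + 1, from limma, with their standard error (SE), and a gene is called changed at a Benjamini-Hochberg adjusted p under 0.05 over all genes tested. Blebbistatin replicate 2 stood apart from its group for interferon-induced genes, and without it the same numbers of the 9 genes were called. In bulk RNA, fewer cells of a type and less RNA per cell cannot be told apart.

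Ccl2, the main attractant of monocytes through Ccr2, moved in opposite directions under the inhibitors. Its normalised count was 7834, 7404 and 7467 in the DMSO libraries and 3622, 4276 and 3246 with blebbistatin. In the Y27632 table it was 8144, 7687 and 7759.7 with DMSO and 13185, 10438 and 12172 with Y27632. All 3 blebbistatin libraries were below, and all 3 Y27632 libraries above, every DMSO library. The log2 difference was -1.04 (SE 0.074), 2.05-fold lower, with blebbistatin and 0.60 (SE 0.063), 1.51-fold higher, with Y27632.

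Ccl7, which also binds Ccr2 and lies next to Ccl2, had the same pattern. With DMSO its normalised count was 2786, 2755 and 3098, and with blebbistatin 1497, 1815 and 1471. Against 2896, 2859.6 and 3219.7 in the DMSO libraries of the other table, it was 5102, 4365 and 4841 with Y27632. Neither treated group overlapped DMSO, and blebbistatin replicate 2 was the highest of its group for both genes while Y27632 replicate 2 was the lowest. The log2 difference of Ccl7 was -0.86 (SE 0.073) with blebbistatin, 1.81-fold lower, and 0.67 (SE 0.056) with Y27632, 1.59-fold higher.

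Ccl11 encodes eotaxin, which draws eosinophils through Ccr3, and it was higher with both inhibitors although it is the third gene of that row on chromosome 11. It was at 258, 254 and 288 normalised counts with DMSO and at 364, 358 and 368 with blebbistatin. In the other table DMSO gave 268, 263 and 299.6, and Y27632 gave 534, 421 and 494. Both treated groups were wholly above DMSO, the blebbistatin libraries close together and the Y27632 libraries more spread. Its log2 difference was 0.44 (SE 0.076), a 1.36-fold rise, with blebbistatin and 0.79 (SE 0.090), a 1.73-fold rise, with Y27632.

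Cxcl1, a ligand of the neutrophil receptor Cxcr2, had the largest single fold of the 9 genes. It stood at 103, 103 and 107 normalised counts with DMSO and at 69.6, 114 and 95.6 with blebbistatin. Y27632 gave 669, 483 and 638, against 107, 107 and 111 with DMSO. Blebbistatin values lay on both sides of DMSO, whereas the lowest Y27632 library was far above the highest DMSO library. The log2 difference was 2.44 (SE 0.11), 5.41-fold higher, with Y27632, and -0.19 (SE 0.17) with blebbistatin, where Cxcl1 was the one gene of the 9 that was not called. Without blebbistatin replicate 1 the latter was 0.00.

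Cxcl5, another Cxcr2 ligand, moved in both comparisons. Its normalised count was 2008, 1747 and 1933 with DMSO and 1254, 1116 and 1137 with blebbistatin. With Y27632 it was 4208, 2974 and 3550.2, beside 2087, 1814 and 2009 with DMSO. Blebbistatin libraries were all lower than DMSO and Y27632 libraries all higher, and Y27632 replicate 1 was well above replicate 2. Its log2 difference was -0.70 (SE 0.059), 1.62-fold lower, with blebbistatin and 0.85 (SE 0.093), 1.8-fold higher, with Y27632.

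Cxcl12 binds Cxcr4 and the scavenging receptor Ackr3 and is known for keeping blood-forming and immune cells near stromal cells. It was higher with both inhibitors, and here the larger difference was under blebbistatin. DMSO libraries had 6433, 6413 and 6503 normalised counts and blebbistatin libraries 14666, 14222 and 15196. In the Y27632 table they had 6688, 6657 and 6758 with DMSO and 10800.5, 10357 and 10597 with Y27632. The groups were far apart and each was tight, with SDs of 47.6 for DMSO and 487 for blebbistatin in the first table. On the log2 scale the difference was 1.19 (SE 0.032), 2.28-fold higher, with blebbistatin and 0.66 (SE 0.029), 1.58-fold higher, with Y27632.

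Cxcl14, a chemokine made in resting skin and other tissues, was lower with blebbistatin. It was at 506, 584 and 578 normalised counts with DMSO and at 338, 381 and 288 with blebbistatin. Y27632 gave 548, 413 and 526, against 526, 606 and 600.5 with DMSO. The blebbistatin libraries were all below DMSO, while Y27632 replicates 1 and 3 were within the range of DMSO or level with its lowest library. The log2 difference was -0.73 (SE 0.097), 1.66-fold lower, with blebbistatin. With Y27632 it was -0.23 (SE 0.096), the one difference of the 9 that was not called, and it was called at -0.31 when Y27632 replicate 1 was left out.

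Of the 2 transmembrane chemokines, Cxcl16, which binds Cxcr6 on T cells, was higher under both inhibitors. Its normalised count was 364, 338 and 363 with DMSO and 529.8, 499.9 and 488 with blebbistatin. In the other table it was 379, 350.4 and 377 with DMSO and 448, 421 and 460.2 with Y27632. Neither treated group reached down to DMSO, and the distance was smaller under Y27632. For Cxcl16 the log2 difference was 0.51 (SE 0.066), 1.42-fold higher, with blebbistatin and 0.26 (SE 0.067), 1.2-fold higher, with Y27632.

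Cx3cl1, or fractalkine, the ligand of Cx3cr1 on monocytes and microglia, had signs opposite to those of Ccl2, Ccl7 and Cxcl5. It stood at 282, 263 and 272 normalised counts with DMSO and at 337, 405 and 360.2 with blebbistatin. With Y27632 it was at 182, 183 and 200.2, beside 293, 273 and 283 with DMSO. Every blebbistatin library was above, and every Y27632 library below, all 3 DMSO libraries. The log2 difference was 0.43 (SE 0.082), 1.34-fold higher, with blebbistatin and -0.58 (SE 0.083), 1.5-fold lower, with Y27632.

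**Figure D1:**
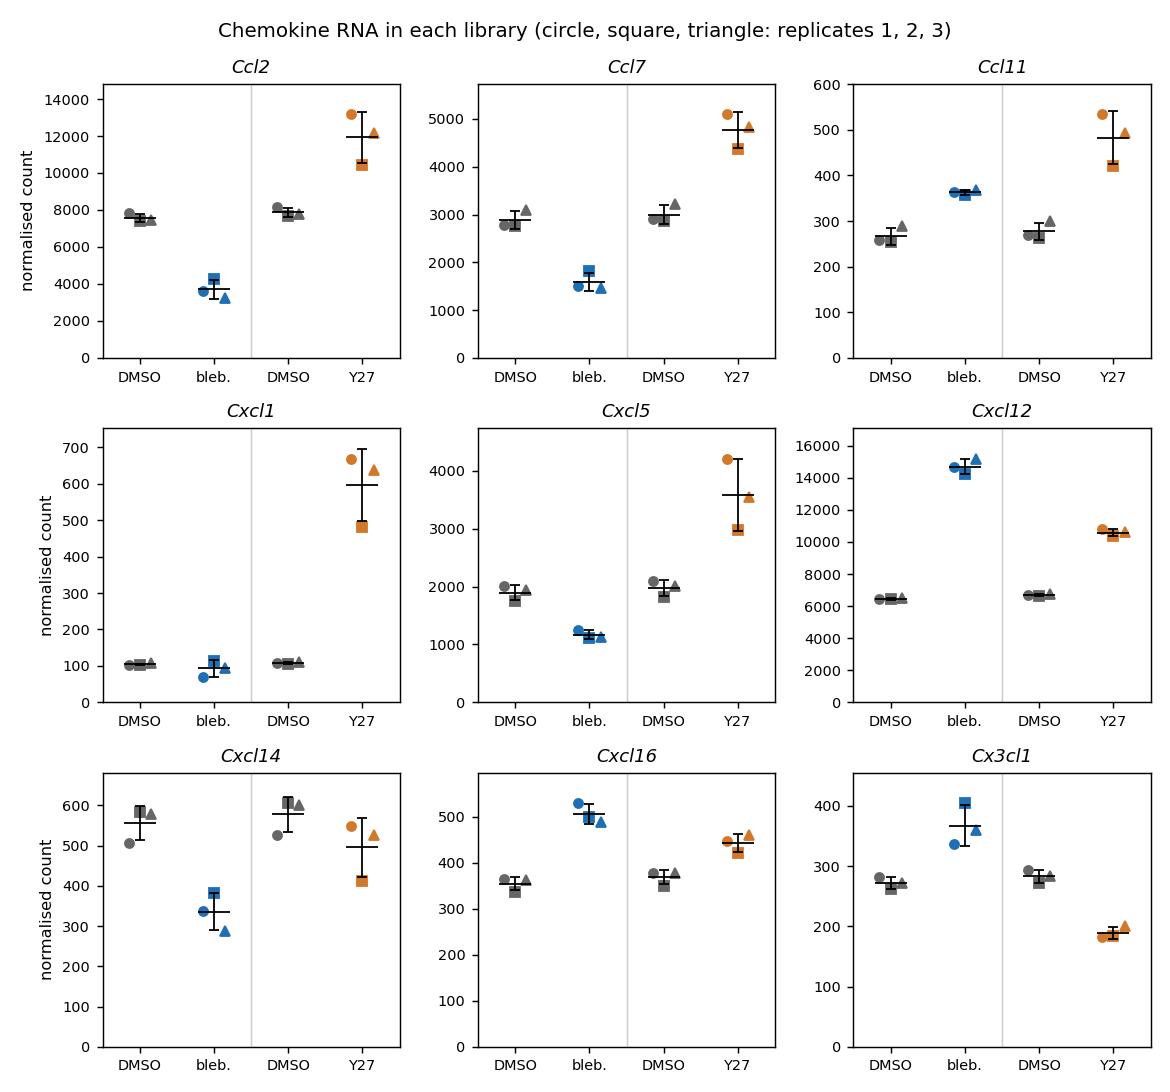
Normalised count (y axis, from 0) of the 9 chemokine genes in each RNA library, for DMSO and blebbistatin (bleb.) in the blebbistatin table and for DMSO and Y27632 (Y27) in the Y27632 table. Circles, squares and triangles are replicates 1, 2 and 3, and black bars are the mean and SD of 3 libraries. Cxcl1 stood near 100 in all but the Y27632 libraries, where it was 483 to 669.

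With blebbistatin 8 of the 9 genes were called, Ccl11, Cxcl12, Cxcl16 and Cx3cl1 higher and Ccl2, Ccl7, Cxcl5 and Cxcl14 lower, and over all 14882 genes tested 53.0% were called. With Y27632 8 of 9 were called as well, 7 higher and Cx3cl1 lower, beside 35.9% of 14833 genes. By direction, 26.1% of all genes were called higher and 26.9% lower with blebbistatin, and 18.1% higher and 17.8% lower with Y27632. In each comparison the treated libraries of 8 of the 9 genes did not overlap DMSO, the exception being Cxcl1 with blebbistatin and Cxcl14 with Y27632, beside 60.2% of all genes with blebbistatin and 48.1% with Y27632. The genes were chosen on these values, so nothing is read from these counts. The median log2 difference of the 9 genes was -0.19 with blebbistatin and 0.66 with Y27632, and that of all genes tested 0.00 in both. The blebbistatin median was the value of Cxcl1 itself, and it was 0.00 without blebbistatin replicate 1 and -0.35 without blebbistatin replicate 2. In the authors' deposited tables, the same 8 genes had an adjusted p under 0.05 with the same sign in each comparison. Those values come from the same libraries and are no separate support.

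**Figure D2:**
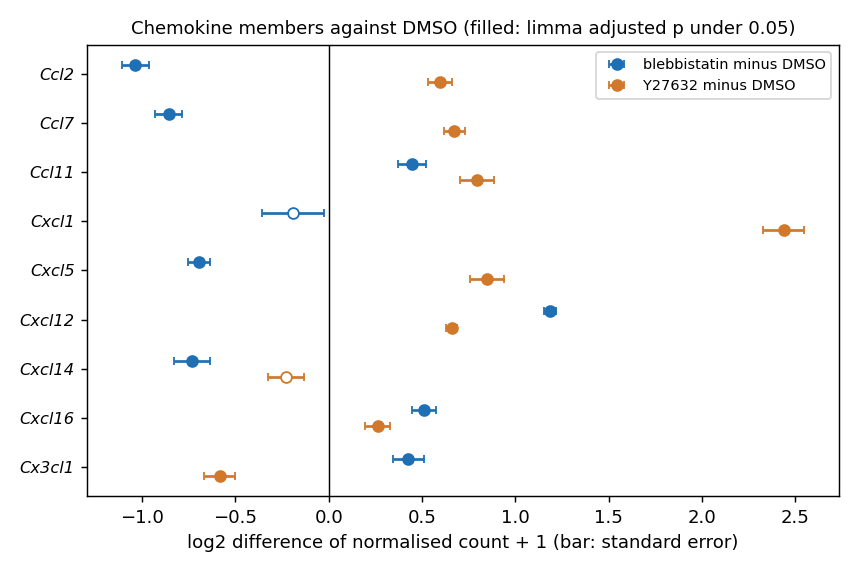
Log2 difference of normalised count + 1 from DMSO (x axis), with its standard error, of the 9 chemokine genes under blebbistatin and under Y27632. Filled points had a limma adjusted p under 0.05. Ccl2, Ccl7, Cxcl5 and Cx3cl1 had opposite signs under the inhibitors, while Ccl11, Cxcl12 and Cxcl16 were higher under both.

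The inhibitors were set against each other on recovered reads of all 9 libraries scaled together, with edgeR, where 53.1% of 14925 genes were called. All 9 chemokine genes were called. With blebbistatin 3 stood higher than with Y27632 and 6 lower, beside 26.9% and 26.2% of all genes, and for none of them did the 2 groups overlap, beside 60.5% of all genes without overlap. The widest gap was that of Cxcl1, with a mean of 98.2 ± 23.6 (SD, n = 3) jointly scaled counts under blebbistatin and 604 ± 101 (SD, n = 3) under Y27632, a log2 difference of -2.59. Leaving out each library in turn, that difference stayed between -2.78 and -2.44.

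The next gaps were those of the monocyte attractants and Cxcl5. Ccl2 had means of 3916 ± 546 with blebbistatin and 12077 ± 1412 with Y27632 (SD, n = 3 each), a log2 difference of -1.62. Cxcl5 had means of 1232 ± 78.3 and 3621 ± 627 (SD, n = 3 each), a difference of -1.55, and Ccl7 means of 1680.3 ± 200.4 and 4827 ± 381, a difference of -1.51. No blebbistatin library of these 3 genes reached the lowest Y27632 library.

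Cx3cl1, Cxcl12 and Cxcl16 stood on the other side. Cx3cl1 had a mean of 387 ± 36.2 jointly scaled counts with blebbistatin and 191 ± 10.3 with Y27632 (SD, n = 3 each), a log2 difference of 1.04. For Cxcl12 the difference was 0.54, for Cxcl16 it was 0.26, and for Cxcl14 and Ccl11 it was -0.49 and -0.35. The inhibitors were used at different doses, 10 µM and 30 µM, and each at 1 dose only.

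Single libraries were high or low for many of these genes at once. Y27632 replicate 2 was the lowest of its group for 8 of the 9 genes, while it was the lowest for 34.5% of all genes tested. Y27632 replicate 1 was the highest for 7 of the 9, beside 32.0% of all genes. Blebbistatin replicate 2 was the highest of its group for 5 of the 9 genes, beside 33.0% of all genes. The log2 difference of Cxcl5 under Y27632, for example, ranged from 0.72 to 0.97 when each library was left out in turn.

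Macrophage markers moved with treatment as well. The summed level of the 13 markers was 7288 to 7989 jointly scaled counts with DMSO, 10268 to 11559 with blebbistatin and 10369 to 11818 with Y27632, most of it from the lysozyme gene Lyz2. Of the 12 markers tested with limma, 8 were higher and 0 lower with blebbistatin, with a median log2 difference of 0.46, and 11 were higher and 0 lower with Y27632, with a median of 0.56. Over all genes tested, 53.0% were called with blebbistatin, 26.1% higher, and 35.9% with Y27632, 18.1% higher. Cd68, a lysosomal protein of macrophages, rose by 0.58 (adjusted p = 7.85e-06) with blebbistatin and by 0.55 (adjusted p = 9.39e-05) with Y27632. Between the inhibitors edgeR called 0 of the 12 at an adjusted p under 0.05, beside 53.1% of all genes, and 0 were at an unadjusted p under 0.05. Without blebbistatin replicate 2 it called 2 at an adjusted p under 0.05, both lower with blebbistatin. Cd163, another of the markers, had at most 11.3 jointly scaled counts in a library. Y27632 replicate 2 was the lowest of its group for 10 of the 12 markers and blebbistatin replicate 2 the highest for 11. The part of macrophage RNA in the chemokine values was not tested.

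Over the 9 libraries, each chemokine gene was matched to the gene outside the list whose log2 profile was most like its own, among 11437 genes with a mean of at least 100 counts. These are descriptions over 3 groups of libraries with shared depth and shared controls. Cxcl12 was most like Mitf, a transcription factor (Pearson r = 0.999), with means of 862, 2818 and 1617 jointly scaled counts for Mitf with DMSO, blebbistatin and Y27632. Cxcl1 was most like Zfp36l2 (r = 0.992), an mRNA-binding protein, and Cxcl5 most like Sdc4 (r = 0.993), a heparan sulfate-bearing syndecan. Ccl11 was most like Il1r1 (r = 0.986), the signalling receptor of interleukin 1, with means of 1757, 2609 and 3513. Ccl2 was paired with Tpbg and Ccl7 with the cytokine gene Clcf1 (r = 0.995 for both), Cxcl16 with Smox (r = 0.994), Cx3cl1 with Cbx6 (r = 0.990) and Cxcl14 with Mettl1 (r = 0.973).

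Beyond the 9 genes, 13 of 32 other chemokine ligands were high enough to be tested. They were Ccl3, Ccl5, Ccl6, Ccl8, Ccl9, Ccl25, Ccl27a, Cxcl2, Cxcl3, Pf4, Ppbp, Cxcl9 and Cxcl10. With blebbistatin 4 of the 13 were called, Ccl3, Ccl8 and Pf4 higher and Ccl9 lower, and with Y27632 5 were called, Ccl6, Cxcl2, Cxcl3 and Pf4 higher and Ccl9 lower, beside 53.0% and 35.9% of all genes tested. Their median log2 difference was 0.24 with blebbistatin and 0.14 without blebbistatin replicate 2. With Y27632 it was 0.39, and 0.22 without Y27632 replicate 1 and 0.24 without DMSO replicate 3.

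The Cxcr2 ligands Cxcl2 and Cxcl3, whose promoters are shown above with that of Cxcl1, were low but rose with Y27632. Cxcl3 was at 29.9, 29.8 and 19.1 normalised counts with DMSO and at 69.2, 62.9 and 63.9 with Y27632, a log2 difference of 1.31 (SE 0.21, limma adjusted p = 0.0003). Cxcl2 went from 15.5, 17.2 and 14.3 to 39.1, 40.7 and 33.5, a difference of 1.22 (SE 0.22, limma adjusted p = 0.000926). Neither was called with blebbistatin, where Cxcl3 had 28, 22.2 and 26.6 normalised counts, and Cxcl2 had 11.4 and 10.7 in replicates 1 and 2 but 45.9 in replicate 3. Between the inhibitors Cxcl3 was lower with blebbistatin by edgeR (log2 difference -1.29, adjusted p = 5.74e-05), and Cxcl2 was not called (-0.67, adjusted p = 0.169).

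The remaining calls were spread over several classes of ligand. Pf4, a platelet chemokine also made by macrophages, rose by 0.59 (limma adjusted p = 0.00027) with blebbistatin and by 0.64 (limma adjusted p = 0.000404) with Y27632. Ccl6 rose by 0.75 with Y27632 (limma adjusted p = 0.00142), from 75.4, 64.1 and 70.4 to 138, 99.2 and 121 normalised counts. Ccl9, which binds Ccr1, fell by 0.94 with blebbistatin (limma adjusted p = 7.41e-07) and by 0.47 with Y27632 (limma adjusted p = 0.000381). Ccl8, another monocyte attractant, rose by 0.33 with blebbistatin (limma adjusted p = 0.000946). The call of Ccl3 with blebbistatin (0.76, limma adjusted p = 0.0476) rested on means of 9.96 and 17.5 and was lost without a filter on low values, with DESeq2, with a replicate block and without each of 5 single libraries. Between the inhibitors edgeR called 5 of the 13, beside 53.1% of all genes. Cxcl3, Ppbp, Ccl6 and Ccl9 were lower and Ccl8 higher with blebbistatin. Ppbp differed by -0.57 (edgeR adjusted p = 0.0166), Ccl9 by -0.47 (edgeR adjusted p = 0.000161) and Ccl8 by 0.23 (edgeR adjusted p = 0.0104). The Ppbp call was lost without blebbistatin replicate 2, that of Ccl6 without Y27632 replicate 1, and that of Ccl8 without blebbistatin replicate 1 or Y27632 replicate 2.

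Of 23 chemokine receptors, 9 were tested, namely Ccr1, Ccr7, Ccr10, Ccrl2, Cxcr4, Ackr1, Ackr2, Ackr3 and Ackr4. The signalling receptors of most of the 9 ligands were barely detected, since Ccr2, Ccr3, Cxcr2, Cxcr6 and Cx3cr1 had at most 5 reads in any library. With blebbistatin 3 of the 9 receptors rose and 1 fell, and with Y27632 5 rose and 0 fell, beside 53.0% and 35.9% of all genes called.

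Ackr3, which scavenges Cxcl12, had 4426, 4574 and 4458 normalised counts with DMSO and 2227, 2436 and 2211 with blebbistatin. It fell by 0.97 (SE 0.041, limma adjusted p = 1.59e-09) with blebbistatin and rose by 0.13 (SE 0.031, limma adjusted p = 0.00616) with Y27632, and the difference between the inhibitors was -1.08 (edgeR adjusted p = 3.74e-11). Its ligand Cxcl12 was higher in both. Cxcr4, the signalling receptor of Cxcl12, rose by 0.54 (limma adjusted p = 0.0101) with blebbistatin and by 0.67 (limma adjusted p = 0.00434) with Y27632. Reads of Cxcr4 were few, with 79, 54 and 69 in the DMSO libraries, 92, 144 and 111 with blebbistatin and 163, 115 and 131 with Y27632.

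Among the remaining receptors, Ccr1 rose by 0.84 and 0.93 with blebbistatin and Y27632 (limma adjusted p = 0.000649 and 0.000465). Ccr7, which guides dendritic cells and lymphocytes, rose by 0.97 with Y27632 (limma adjusted p = 0.00708), from 15.5, 17.2 and 17.9 to 30.1, 44.3 and 29.3 normalised counts, and was lower with blebbistatin than with Y27632 (-1.02, edgeR adjusted p = 0.00279). Ccrl2 rose by 0.89 with blebbistatin (limma adjusted p = 0.00612), and its difference between the inhibitors, 0.76 by edgeR, was not called at 0.44 without blebbistatin replicate 2. Ackr2 was called with Y27632 (0.72, limma adjusted p = 0.0308) from at most 38 reads in a library, and not called under 8 of the alternatives. Ccr1 and Cxcr4 are also made by macrophages. The part of macrophage RNA in their values was not tested.

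**Figure D3:**
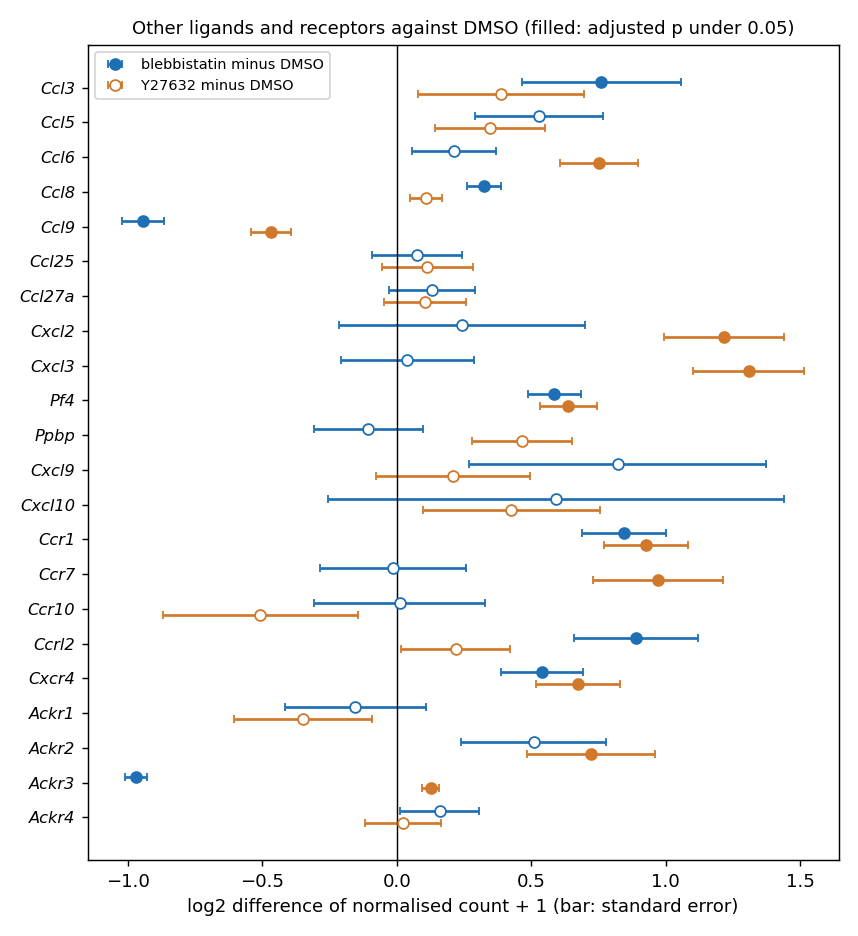
Log2 difference of normalised count + 1 from DMSO (x axis), with its standard error, of the 13 other chemokine ligands and 9 chemokine receptors that were tested. Filled points had a limma adjusted p under 0.05. Cxcl2 and Cxcl3 lay at 1.22 and 1.31 with Y27632, Ccl9 was lower under both inhibitors, and Ackr3 lay at -0.97 under blebbistatin.

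All 24 genes listed for the NF-kB pathway were tested. With blebbistatin 4 rose and 8 fell, with a median log2 difference of -0.05 that lay between -0.07 and 0.00 when each library was left out in turn. With Y27632 9 rose and 4 fell, with a median of 0.06. Of all genes tested, 53.0% and 35.9% were called in these comparisons. Without Y27632 replicate 1 the latter count of 13 was 8. Nfkbiz, a nuclear co-factor of NF-kB, rose by 0.64 with blebbistatin (limma adjusted p = 3.78e-07) and by 0.79 with Y27632 (limma adjusted p = 2.59e-07).

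Bcl3, another nuclear partner of NF-kB proteins, went in opposite directions. It had 187, 195 and 186 normalised counts with DMSO and 134, 166 and 125 with blebbistatin. Y27632 gave 394, 329 and 318, against 194, 203 and 193 with DMSO. It fell by 0.43 with blebbistatin (limma adjusted p = 0.00822) and rose by 0.81 with Y27632 (limma adjusted p = 1.97e-05), and its difference between the inhibitors was -1.22 (edgeR adjusted p = 5.35e-07). Map3k14, the kinase of the non-canonical pathway, fell by 0.61 with blebbistatin (limma adjusted p = 2.92e-05) and was at 0.03 with Y27632. Rel, an NF-kB subunit, fell by 0.52 with blebbistatin (limma adjusted p = 0.000743), and the kinase gene Ikbke rose by 0.45 (limma adjusted p = 1.18e-06). The deubiquitinase gene Cyld fell by 0.40 with Y27632 (limma adjusted p = 6.05e-06). Traf1 was called lower with Y27632 (-0.57, limma adjusted p = 0.0288), and not called under 6 of the alternatives. Between the inhibitors edgeR called 18 of the 24, 6 higher and 12 lower with blebbistatin, beside 53.1% of all genes called. Traf1 at 0.97 (edgeR adjusted p = 0.000311) was the highest.

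Of 22 receptors and adaptors of inflammatory signals, 11 rose and 6 fell with blebbistatin, and 6 rose and 5 fell with Y27632, beside 53.0% and 35.9% of all genes called. Il1r1 rose from 1717, 1728 and 1757 to 3828, 3022 and 3563 normalised counts with Y27632, by 0.99 (limma adjusted p = 1.35e-07), and by 0.57 with blebbistatin (limma adjusted p = 6.38e-07). Il17ra, a receptor chain of interleukin 17, rose by 0.67 with blebbistatin (limma adjusted p = 7.26e-08) and by 0.33 with Y27632 (limma adjusted p = 0.00028). Tlr2, a sensor of bacterial lipoproteins, rose by 0.85 with blebbistatin (limma adjusted p = 1.6e-07). Il6st, the shared signalling chain of the interleukin 6 family, fell by 1.41 with blebbistatin (limma adjusted p = 5.27e-11), and Ifngr1 fell by 0.65 (limma adjusted p = 1.05e-07). With Y27632 the largest decreases were those of Tlr3, which fell by 0.69 (limma adjusted p = 1.84e-05), and Il17rc, which fell by 0.33 (limma adjusted p = 9.53e-05). Between the inhibitors 16 of the 22 were called by edgeR, beside 53.1% of all genes. Tlr3 at 1.13 (edgeR adjusted p = 4.22e-05) and Il6st at -1.12 (edgeR adjusted p = 3.94e-11) were at the ends.

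Other secreted cytokines were also split. Of 16 listed, 13 were tested, of which 4 rose and 4 fell with blebbistatin and 5 rose and 2 fell with Y27632, beside 53.0% and 35.9% of all genes called. Il6 was at 8.26, 20.6 and 16.7 normalised counts with DMSO and at 54.1, 32.8 and 56.6 with Y27632, a rise of 1.64 (limma adjusted p = 0.0016), and Lif of the same family rose by 1.21 (limma adjusted p = 0.000229). Neither was called with blebbistatin, and the difference between the inhibitors was -2.16 for Il6 (edgeR adjusted p = 4.76e-05). Csf1, the growth factor of macrophages, fell by 1.13 with blebbistatin (limma adjusted p = 7.3e-11) and by 0.20 with Y27632 (limma adjusted p = 0.00131). Tslp and Il11 fell by 1.35 and 1.15 with blebbistatin (limma adjusted p = 4.82e-06 and 3.29e-05), and Il1a and Il34 rose by 1.12 and 0.66 (limma adjusted p = 0.0106 and 0.000406). Il18 was called lower with Y27632 (-0.27, limma adjusted p = 0.048), and not called under 6 of the alternatives.

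For chromatin, the authors' deposited tables give sites with a log2 fold and a false discovery rate (FDR) but no value per library, so no SD or test is given here. The ATAC tables of blebbistatin and of Y27632 against DMSO, with 970 and 207 sites, and the table of blebbistatin alone against neither drug, with 1231 sites, list no site annotated to the 9 genes. Of their sites, 98.2%, 85.0% and 99.0% were lower with the inhibitor. The tables hold only sites that passed the authors' thresholds, so this does not show that these genes had no accessible sites or no change. The table of doxycycline alone against neither drug, in which 95.8% of 7613 sites were higher, lists 8 sites of the 9 genes, 6 higher and 2 lower. The table of both drugs against doxycycline alone, in which 99.8% of 6346 sites were lower, lists 4, all lower. Coordinates are as in the files, and the submitters' processing notes name the build mm10. In the doxycycline table the reference column is headed as blebbistatin alone, and from values shared with another table it was read as neither drug.

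Ccl2, Ccl7 and Cx3cl1, which attract monocytes among other cells, each had a site at the promoter. In the authors' deposited table of doxycycline alone against neither drug, the site chr11:82045501-82045985 lay with its centre 31 bases past the start of Ccl7 and had a log2 fold of 1.08 (FDR 7.26e-06). That authors' deposited table gave the site chr11:82034579-82034718, 928 bases before the start of Ccl2, a log2 fold of 1.10 (FDR 0.000131). It also gave the site chr8:94771998-94772307 at the start of Cx3cl1, which covers the Cx3cl1 window printed above, a log2 fold of 1.03 (FDR 2.66e-05). All 3 were higher with doxycycline, and the annotation calls all 3 promoter sites.

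Further from the start were sites of the Cxcr2 ligands. The authors' deposited table of doxycycline alone listed the intergenic site chr5:90885004-90885135, 6175 bases before Cxcl1, at a log2 fold of 1.02 (FDR 0.00763). In the authors' deposited table of both drugs against doxycycline alone, the intergenic site chr5:90750528-90750844, 8612 bases before Cxcl5, had a log2 fold of -1.15 (FDR 3.09e-08). Neither site was listed in the other of these tables. Within the same cluster, the authors' deposited tables listed chr5:90898490-90898692, annotated to Cxcl2, at 1.57 with doxycycline alone and at -1.11 with both drugs against doxycycline alone, and chr5:90778976-90779274, annotated to Pf4, at 1.49 and -1.37. A further site of the cluster, chr5:90763857-90764505, annotated to Ppbp, was listed by the authors only with both drugs against doxycycline alone. Its log2 fold there was -1.18 (FDR 1.12e-10). These 2 tables share the group with doxycycline alone, which stands on the higher side in both.

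Cxcl12 had the most sites, 7 entries at 6 places. In the authors' deposited table of doxycycline alone, chr6:117102787-117102959 (65662 bases before the start) had a log2 fold of 1.21 (FDR 0.00146) and chr6:117148005-117148200 (20432 bases before it) had 1.39 (FDR 3.51e-05). The same authors' deposited table put 2 sites past the gene lower, chr6:117185397-117185717 at -1.47 (FDR 1.98e-05) and chr6:117271540-117271751 at -1.13 (FDR 0.000366). Over that whole list 4.15% of all sites were lower. With both drugs against doxycycline alone, the authors' deposited table gave -1.28 (FDR 6.37e-05) to chr6:117148005-117148200, -1.26 (FDR 2.86e-11) to chr6:117071742-117072201, 96563 bases before the start, and -1.05 (FDR 0.000935) to chr6:117175253-117175439 inside the gene, which the annotation assigns to a transcription termination site. The site 20432 bases before Cxcl12 was thus the one place annotated to the 9 genes that both tables list.

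**Figure D4:**
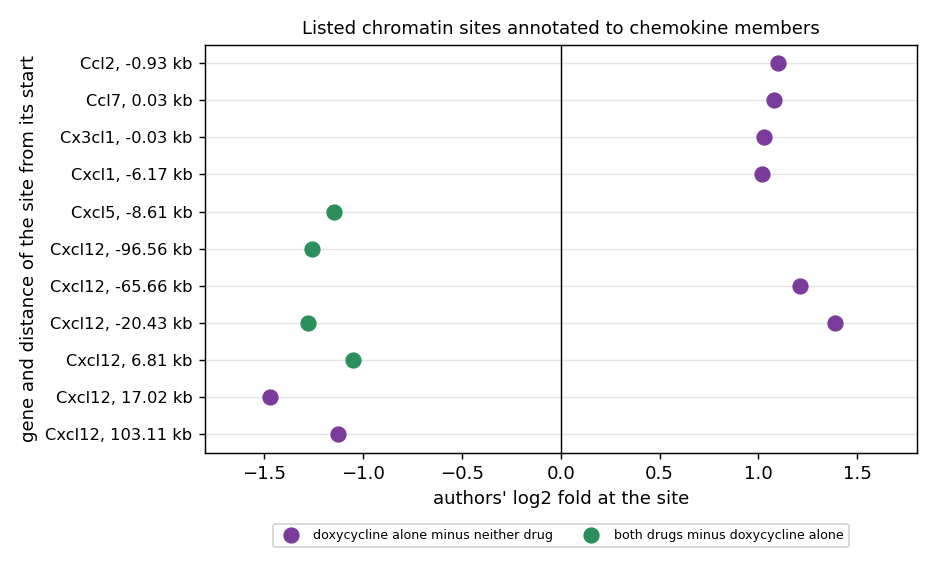
The authors' log2 fold (x axis) at each listed site annotated to one of the 9 chemokine genes, by gene and distance of the site from the annotated transcription start in kb. Purple points compare doxycycline alone with neither drug, and green points both drugs with doxycycline alone. The Cxcl12 site that lies 20432 bases before the start appears for both comparisons, at 1.39 and -1.28.

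Sites of other ligands and receptors had the direction of most listed sites. The authors' deposited tables annotate 11 sites, all higher with doxycycline alone, and 8, all lower with both drugs, to the 32 other ligands. In the authors' deposited ATAC table of blebbistatin against DMSO, a site at chr1:90352549-90352816, 148703 bases past the start of Ackr3, had a log2 fold of -1.74 (FDR 0.0162). The authors' deposited values for a site annotated to Ccl20 were -1.63 (FDR 0.0189) in that comparison. Of all sites listed for it, 98.2% were lower. Whether any of these sites was linked to RNA was not tested.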

How the data were processed

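RNA was measured in 9 libraries and chromatin in 21, grouped by the labels' treatments. The authors deposited normalised counts per gene (a signal: reads divided by 1 size factor per library, read from the values, of which 100% were whole multiples of 1 step within 0.01), with log2 folds and p-values, per the file headers. The site tables hold the authors' log2 means, log2 folds, p-values and FDR, and distances to transcription starts (another value, from the authors). The submitters' processing notes name HISAT2, featureCounts, DESeq2, Bowtie2, SAMtools, Picard, MACS2, DiffBind, HOMER and mm10. Roles, versions, strand and annotation are not given in the sources used here.

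In each table, limma 3.58.1 (R 4.3.3, trend) was fitted on log2(count + 1) to genes averaging 10 or more normalised counts, without a replicate block and with Benjamini-Hochberg adjustment; the scale understates the change of low genes. All 9 chemokine genes passed this filter in every fit. The inhibitors were compared with TMM-scaled recovered reads of the 9 RNA libraries in edgeR 4.0.16 (quasi-likelihood test), since the tables were scaled separately. Jointly scaled counts are the same reads divided by DESeq2 size factors, not by the TMM factors. The fits were run on simulated data with the same dispersion for every gene and no library that stood apart. That check therefore does not cover such libraries or genes of larger spread. DESeq2 1.42.0, edgeR, other pseudocounts (0.5 and 4), filters (none and 50), a replicate block, leaving out each library and, added after seeing the data, 1 scaling of all 9 RNA libraries were alternatives.

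The chemokine genes and all lists were chosen with earlier results of these data known. Of other ligands and receptors, those tested are named, with values for up to 3 called genes of largest log2 change per direction and comparison. Of other lists, values are given for up to 2. Bcl3 with blebbistatin, Il1r1 with blebbistatin, Sdc4, Adam10, Adam17, Cd68, Cxcl9 and Cxcl10 were added after their values were seen. Most similar profiles are by Pearson correlation of log2 jointly scaled counts over 9 libraries. In the doxycycline table the header names blebbistatin alone as the reference; at 13 sites shared with the table of blebbistatin alone it differed from the group with neither drug by a mean of -0.13 (SD 0.0044) and from the group in its header by 1.12 (SD 0.184), and it was read as neither drug. Motifs were searched in RefSeq promoter sequences. Sample columns without a label numbered 0.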

Additional observations from a re-analysis of the deposited data

How the results depend on the processing

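The counts of called chemokine genes, 8 of 9, 8 of 9 and 9 of 9, were the same under every pseudocount, filter, tool and scaling tried. Leaving out each library in turn gave 8 to 8, 8 to 9 and 9 to 9. With a replicate block the called genes of all tested were 7604 with blebbistatin, 4633 with Y27632 and 7699 between the inhibitors, and no call among the 9 genes changed; samples of the same number did not deviate together (correlations of -0.084 to 0.048). Cxcl1 with blebbistatin, never called, went from -0.19 to 0.00397 without blebbistatin replicate 1, with a range of -0.35 to 0.00397 over left-out libraries. Mx1, an interferon-induced gene, turned from 2.56 to -0.15 between the inhibitors without blebbistatin replicate 2, and reached 3.15 without Y27632 replicate 1. With a filter at 50 the called other ligands with Y27632 were 3 and the called receptors 3, from 5 each, because fewer genes are tested. The called NF-kB genes with Y27632 ranged from 8 to 13 over left-out libraries, the lowest without Y27632 replicate 1; the cause was not tested. With 3 libraries per group, small changes of genes with few reads, such as Ackr2 and Ccl3, were not stable. Depth of the chromatin libraries is unknown here.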

Other observations

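Chemokines are also acted on after they are made, by proteases and by binding to heparan sulfate, and 53.0% of all genes tested were called with blebbistatin and 35.9% with Y27632. Of 11 genes for cleavage and shedding, 7 rose and 3 fell with blebbistatin, and 6 rose and 2 fell with Y27632, with median log2 differences of 0.51 and 0.23. The protease genes Ctsk and Mmp14 rose by 1.29 and 1.18 with blebbistatin (limma adjusted p = 7.79e-12 and 3.09e-11), and Ctss and Ctsk rose by 0.56 and 0.41 with Y27632 (limma adjusted p = 3.77e-06 and 3.52e-07). Adam17, a sheddase of transmembrane proteins, rose by 0.68 with blebbistatin and by 0.23 with Y27632 (limma adjusted p = 5.1e-09 and 0.000259). Adam10, also a sheddase, did not rise. It had 5765, 6028 and 6056 jointly scaled counts with DMSO and less in every blebbistatin library, at 5155, 5167 and 5563. With Y27632 Adam10 had 5748, 5673 and 5901, which overlapped DMSO. Timp3, an inhibitor of such proteases, fell by 1.34 with blebbistatin (limma adjusted p = 7.1e-12) and by 0.26 with Y27632 (limma adjusted p = 2.16e-05). Of 18 genes for heparan sulfate and its core proteins, 6 rose and 11 fell with blebbistatin, and 4 rose and 6 fell with Y27632, to be read beside the same shares of all genes. The sulfotransferase gene Hs6st2 fell by 1.04 and 0.39 (limma adjusted p = 2.46e-09 and 1.32e-05), and Sdc4 fell by 0.28 with blebbistatin and rose by 0.35 with Y27632 (limma adjusted p = 2.4e-05 and 7.46e-05).

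Single libraries of both treated groups stood apart for interferon-induced genes. Cxcl10, a chemokine induced by interferon, had 10.9, 245 and 14.5 jointly scaled counts in blebbistatin replicates 1, 2 and 3, and Cxcl9 had 8.76, 73.6 and 22.3. Usp18, an interferon-induced gene, had 302, 1282 and 249.9 normalised counts there, against 111, 146 and 109 with DMSO. Over all genes tested, limma called 53.0% with blebbistatin and 35.9% with Y27632. Of 15 genes of an interferon list, 4 rose and 0 fell with blebbistatin by limma, with a median log2 difference of 0.83, and without blebbistatin replicate 2 the counts were 5 and 2, with a median of 0.22. Without blebbistatin replicate 3 they were 11 and 0, with a median of 1.14. Y27632 replicate 1 was the highest of its group for Ifit1 and Usp18, with 860, 323 and 383 jointly scaled counts of Ifit1 and 174, 78.8 and 102 of Usp18 in Y27632 replicates 1, 2 and 3. With Y27632 1 of the 15 rose and 2 fell, with a median of -0.05, and without Y27632 replicate 1 the counts were 1 and 7, with a median of -0.27. With Y27632 Ifit3 rose by 0.30 and Stat2 fell by 0.48 (limma adjusted p = 0.000764 and 0.000635), and neither was called when all 9 RNA libraries were scaled together. With edgeR 10 were higher with blebbistatin than with Y27632, beside 26.9% of all genes, and 4 without blebbistatin replicate 2. The count was 5 without Y27632 replicate 2, 7 without Y27632 replicate 3 and 15 without blebbistatin replicate 3. In blebbistatin replicate 2 the Ccl2 and Ccl7 values were the highest of that group. Whether these values are linked was not tested.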
